A study of Homo sapiens with 34 samples.

Results

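The genes described here make, break down, take up and sense retinoic acid (RA): ALDH1A1, ALDH1A2, ALDH1A3, DHRS3, STRA6, CYP26A1, CYP26B1, RARA, RARB and RARG. They were chosen by name from what is known of the pathway, with earlier results of these data already known. They make up 10 of the 23189 gene symbols in the table. Each gene was read from the RefSeq transcript row with the largest total count. All 10 were found.

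RNA sequencing (RNA-seq) followed H1 cells, a line of human embryonic stem cells (ESCs), on their way to cardiomyocytes (CMs). Every culture was infected with a lentiviral vector and selected with puromycin: WT cells carried an shRNA to GFP or an empty vector, and the other lines carried an shRNA that lowers NKX2-5, ZEB2 or ZNF503. NKX2-5 encodes a homeodomain factor of the early heart, and ZEB2 and ZNF503 encode zinc-finger proteins that the study had picked as candidate cardiogenic genes. RNA was taken at day 0 (undifferentiated ESCs in their full growth medium) and at day 2, day 6 and day 10 of differentiation, in a medium without FGF2, TGFβ or, at first, insulin, with the GSK3 inhibitor CHIR99021 at the start, the Wnt inhibitor IWP2 afterwards and insulin late in the culture. Each of the 15 groups had 2 libraries, numbered 1 and 2, except that the 2 WT and the 2 ZEB2 shRNA libraries used at day 10 were replicates 3 and 4. Differences of NKX2-5 shRNA cells from these at day 10 therefore cannot be told apart from a difference between replicate sets. The same holds for changes to day 10 within WT or ZEB2 shRNA cells. The ZNF503 line is described up to day 6 and its later samples are not used here. Each shRNA line stands for 1 shRNA against its target, so an effect of the target and an effect of that shRNA cannot be told apart. No label says that retinol, retinaldehyde or RA was added.

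RA is made from vitamin A. Cells take up retinol, oxidise it to retinaldehyde and then, irreversibly, to RA, which enters the nucleus and binds RA receptors that sit with a retinoid X receptor on DNA. CYP26 enzymes oxidise RA to inactive products, and CYP26A1, RARB and DHRS3 are themselves among the genes that RA is known to switch on. In the embryo the pathway helps to set the posterior limit of the heart field and the identity of its inflow end, and it acts again in the epicardium and in the liver.

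The classical RA response element is a pair of short repeats with 5 bases between them, and the 2 promoters below are shown because they hold a match to it. The first base of each repeat was left free in the search, so the middle of the pattern has 6 free bases. The 16-base pattern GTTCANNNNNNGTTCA, in which N is any base, was searched on both strands of windows from 250 bases before to 50 bases after each RefSeq start. It occurred in 20 of 35116 windows (0.05695%) and in 2 of the 23 windows of the 10 genes, 1 in RARB and 1 in CYP26A1. The 150 bases before each of these starts are printed with the match in capitals, from RefSeq's GRCh38.p14 assembly, both on the plus strand. In RARB the match read GTTCACCGAAAGTTCA and ended 36 bases before the start, and in CYP26A1 it lay on the minus strand, read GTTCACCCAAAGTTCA and ended 74 bases before the start.
RARB, chr3:25428113-25428262: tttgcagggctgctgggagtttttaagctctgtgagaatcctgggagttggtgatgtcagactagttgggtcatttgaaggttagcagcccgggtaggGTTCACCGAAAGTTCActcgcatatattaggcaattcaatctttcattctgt
CYP26A1, chr10:93073743-93073892: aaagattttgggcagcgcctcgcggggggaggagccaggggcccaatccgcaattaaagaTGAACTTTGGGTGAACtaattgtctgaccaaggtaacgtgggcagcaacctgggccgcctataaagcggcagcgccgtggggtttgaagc
A looser pattern, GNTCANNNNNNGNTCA, includes every match of the stricter pattern. It occurred in 256 windows (0.729%) and in 3 of the 23, the 3 being those of RARB and CYP26A1 and 1 of STRA6, where the letters GCTCAGCTGGAGGTCA ended 164 bases before the start. A match is a description of letters and was not tested for binding here.

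The 30 libraries held 9189943 to 90814577 counts in genes with a symbol. A count of 3 in 1 library, taken as the limit of detection, was worth 0.0330 to 0.326 CPM (counts scaled to a common library size, the unit of level used here), and this covers counting error only. Each targeted transcript was compared with WT in its own line. At day 0 the WT mean of the 3 targets was 0.105 to 0.314 CPM, too low to check the knockdown, as was NKX2-5 at day 2 (0.220 CPM). At day 2, 65.8% ± 5.52 of the WT mean of 17.9 CPM remained for ZEB2, and 89.6% ± 35.5 of the WT mean of 1.54 CPM remained for ZNF503, so the ZNF503 transcript did not show its knockdown on that day. At day 6, 1.30% ± 0.246 of the WT mean remained for NKX2-5, 58.6% ± 2.15 for ZEB2 and 7.00% ± 0.285 for ZNF503, and at day 10, 1.37% ± 1.26 remained for NKX2-5 and 49.2% ± 0.0183 for ZEB2 (SD, n = 2). Marker genes followed the labels in WT cells. The summed level of 5 pluripotency genes was 4310 to 4425 CPM at day 0, that of 5 mesendoderm genes was 786 to 831 CPM at day 2, and that of 5 CM genes was 13823 to 16567 CPM at day 10. The CM sum was 52.4 to 326 CPM in NKX2-5 shRNA cells at day 10, far under the WT range. In these bulk cultures, fewer cells of a type and less RNA per cell cannot be told apart.

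Of the 10 genes, 8 were well detected in some group and 2 were barely detected anywhere. ALDH1A2 encodes the retinaldehyde dehydrogenase that makes most of the RA of the early embryo, and it had 243 counts over all 30 libraries, 0 to 41 per library. CYP26B1, another RA hydroxylase, had 225 counts, 0 to 18 per library. ALDH1A2 held no more than 3 counts in 12 libraries and CYP26B1 in 6. CYP26A1 had the largest total, 133548 counts, followed by ALDH1A1 with 88079, RARG with 25753, ALDH1A3 with 21182, STRA6 with 18971, RARA with 13680, DHRS3 with 12011 and RARB with 10278. The plot of levels by day shows all 10 genes in every library.

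**Figure D1:**
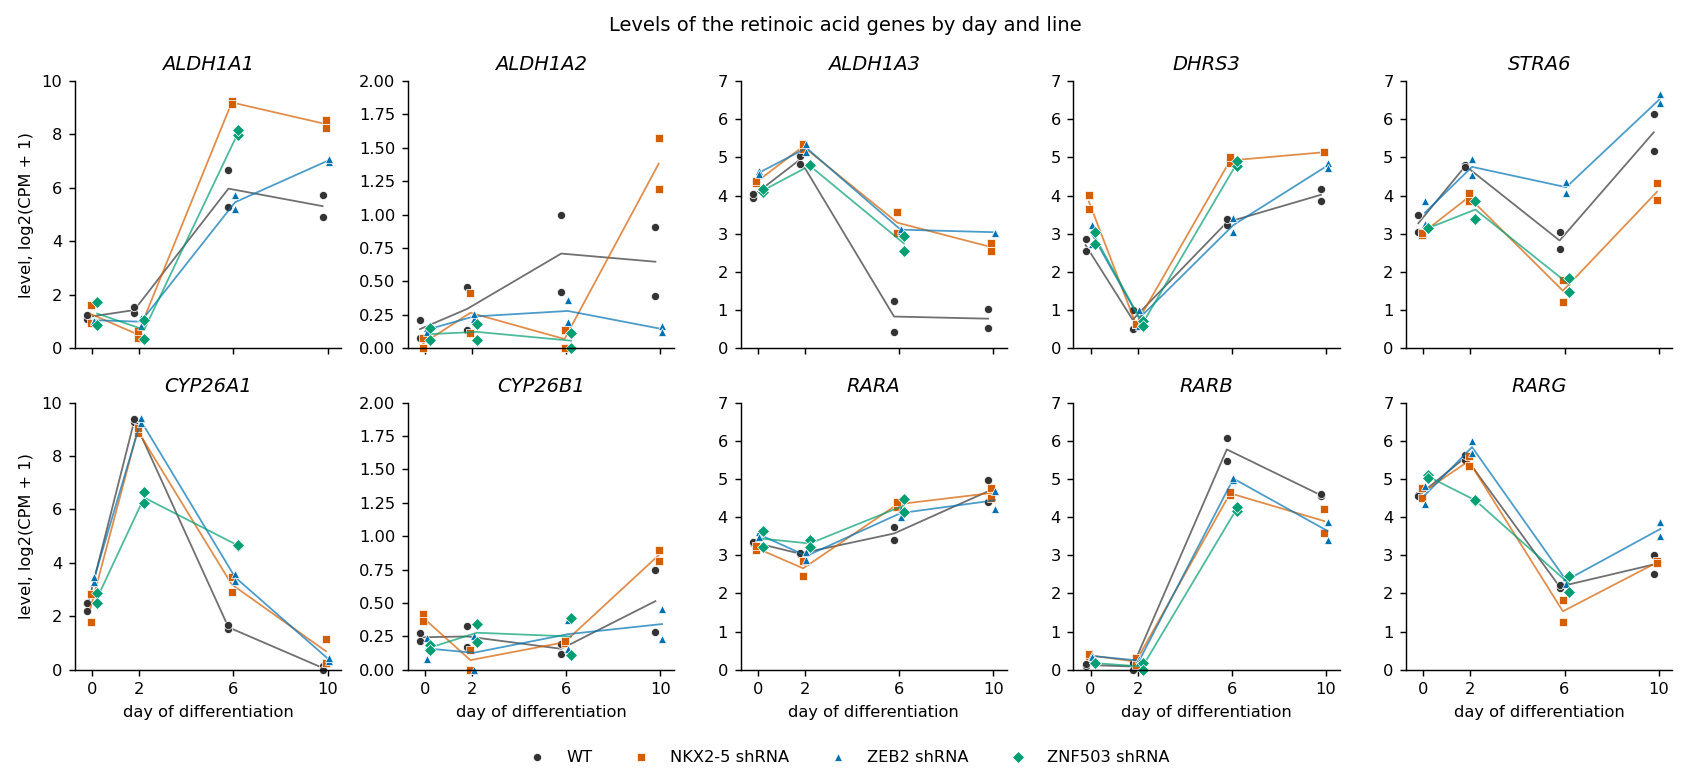
Level of the 10 genes in each library (points; vertical axis log2(CPM + 1), with a range that differs between panels) by day of differentiation (horizontal axis), with lines through the means of WT, NKX2-5 shRNA, ZEB2 shRNA and ZNF503 shRNA cells (n = 2 each). CYP26A1 peaks at day 2 in every line and lowest in ZNF503 shRNA cells (73.8 and 101 CPM), while RARB is near the bottom of its panel until day 6, and the panels of ALDH1A2 and CYP26B1 have the shortest axes.

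The 3 retinaldehyde dehydrogenases catalyse the last step of RA synthesis. ALDH1A1 lies on chromosome 9, 75515587 to 75695358 on the minus strand (hg19, as all gene positions here), with 13 exons in its canonical transcript. ALDH1A2 lies on chromosome 15, 58245622 to 58790065 on the minus strand, and ALDH1A3 on chromosome 15, 101417919 to 101456831 on the plus strand, each also with 13 exons. The other genes of retinaldehyde and retinol handling are DHRS3, a reductase that returns retinaldehyde to retinol (chromosome 1, 12627939 to 12678216, minus strand, 8 exons), and STRA6, the cell-surface receptor through which cells take retinol from retinol-binding protein (chromosome 15, 74471807 to 74504608, minus strand, 19 exons). CYP26A1 is compact (chromosome 10, 94833232 to 94837642, plus strand, 7 exons) and CYP26B1 lies on chromosome 2, 72356367 to 72374991, minus strand, with 6 exons. The nuclear receptors are RARA (chromosome 17, 38465432 to 38513895, plus strand, 9 exons), RARB (chromosome 3, 24729378 to 25639423, plus strand, 8 exons) and RARG (chromosome 12, 53604351 to 53626764, minus strand, 10 exons). Exons of other annotated genes overlap those of ALDH1A2, ALDH1A3, CYP26A1, RARA and STRA6. The counting is not stated to use strand, so reads of such neighbours could be counted with these 5 genes. The overlapping gene of CYP26A1, and 1 of those of ALDH1A3, lie on the same strand, where counting by strand would not separate them.

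In WT cells, the first 2 days brought a burst of the RA-degrading enzyme. Of the 9 members tested, 5 changed between day 0 and day 2, where 44.1% of all genes tested did (edgeR's quasi-likelihood test, 5% false discovery rate, FDR, which is the call used throughout). CYP26A1 went from 3.63 and 4.61 CPM in the 2 libraries of day 0 to 620.1 and 662 CPM at day 2. This rise was 7.31 on the log2 scale (SE 0.17, adjusted p = 2.81e-09). At day 2, CYP26A1 was the highest of the 10 genes per kilobase of transcript, at 303 CPM per kb, with RARG next at 15.9 CPM per kb. RARG rose with it, from 22.7 and 22.5 to 44.4 and 48.5 CPM (log2 change 1.07, SE 0.18, adjusted p = 0.000806). STRA6 also rose, from 7.31 and 10.3 to 26.8 and 26.1 CPM (log2 change 1.62, SE 0.31, adjusted p = 0.00196), and so did ALDH1A3, from 14.3 and 15.6 to 32.0 and 27.5 CPM (1.03, SE 0.31, adjusted p = 0.023). DHRS3 went the other way, from 4.82 and 6.27 to 0.419 and 0.988 CPM, and fell by 3.08 on the log2 scale (SE 0.36, adjusted p = 9.84e-05). The libraries of the 2 days did not overlap for 7 of the 10 members, these 5 among them. The share of all genes without overlap was not counted. The call for ALDH1A3 was lost when any 1 of the 4 libraries was left out (adjusted p from 0.0833 to 0.159), and the log2 change of DHRS3 was -2.46 without WT day 2 replicate 1 and -3.69 without WT day 2 replicate 2.

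From day 2 to day 6, most of this pattern turned over. Of 9 members tested, 7 changed, beside 49.8% of all genes. CYP26A1 fell to 1.87 and 2.16 CPM (log2 change -8.31, SE 0.18, adjusted p = 1.01e-09) and RARG to 3.39 and 3.67 CPM (-3.72, SE 0.20, adjusted p = 1.89e-07). ALDH1A3 fell to 0.347 and 1.34 CPM (-5.01, SE 0.40, adjusted p = 3.68e-06) and STRA6 to 7.21 and 5.09 CPM (-2.13, SE 0.32, adjusted p = 0.000324). The genes that took their place were ALDH1A1 and RARB. ALDH1A1 rose from 1.48 and 1.91 CPM to 37.8 and 101 CPM (5.37, SE 0.51, adjusted p = 1.29e-05). RARB held 4 and 0 counts in the libraries of day 2 and 66.8 and 43.1 CPM at day 6, a ratio of pooled counts of 608 after scaling, with an exact 95% counting interval of 237 to 2233. DHRS3 returned to 8.34 and 9.36 CPM (3.77, SE 0.36, adjusted p = 1.24e-05). The WT libraries at day 6 lay far apart for ALDH1A1 and ALDH1A3. Without replicate 2 of day 6, the log2 changes were 4.51 for ALDH1A1 and -6.40 for ALDH1A3. For DHRS3 the change was 3.15 without replicate 1 of day 2 and 4.38 without replicate 2 of day 2, and for RARB it was 13.5 without replicate 1 of day 2, where no count is left on that side, and 8.68 without replicate 2.

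Between day 6 and day 10 of WT differentiation, when the CM genes climbed further, 6 of 9 members changed (57.5% of all genes). STRA6 rose from 7.21 and 5.09 to 35.2 and 69.4 CPM (log2 change 3.11, SE 0.33, adjusted p = 3.43e-05), which brought it level with ALDH1A1 per kilobase (19.3 and 19.4 CPM per kb). RARA rose from 9.55 and 12.4 to 20.0 and 30.2 CPM (1.19, SE 0.22, adjusted p = 0.00121), and RARB fell to 22.3 and 23.3 CPM (-1.25, SE 0.24, adjusted p = 0.00134). CYP26A1 all but vanished. It had 2 counts in 1 library and 0 in the other, 29.3-fold lower than at day 6 (95% counting interval 7.94 to 244). The fitted log2 change, -4.76, was -8.86 without replicate 3 of day 10, where no count is left on that side. RARG (0.70, SE 0.22, adjusted p = 0.0181) and DHRS3 (0.81, SE 0.27, adjusted p = 0.0257) rose by less, and each of these calls was lost without either library of day 6 or without 1 library of day 10, replicate 4 for RARG (adjusted p from 0.0556 to 0.112) and replicate 3 for DHRS3 (0.0719 to 0.113). ALDH1A1 was at 52.4 and 28.8 CPM at day 10 and did not pass the test against day 6. Against day 0, 7 of 9 members differed at day 6 (60.9% of all genes) and 8 of 9 at day 10 (73.8%). CYP26A1 at day 10 was 58.7-fold lower than at day 0 (95% counting interval 16.1 to 487), and its fitted log2 change of -5.75 was -9.85 without the same replicate. The weakest of the calls at day 6 against day 0 was that of DHRS3 (log2 change 0.69, adjusted p = 0.0461), which was lost without any 1 of the 4 libraries (0.0699 to 0.266), and that of ALDH1A2 (2.56, adjusted p = 0.0318) rested on 37 against 8 counts and was lost without either day 0 library or without replicate 1 of day 6 (0.0608 to 0.229). Without single libraries that change ranged from 1.64, without replicate 1 of day 6, to 3.51, without replicate 1 of day 0, and it was 3.21 without replicate 2 of day 6.

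The knockdown lines went through the same days with changes of their own, each tested within its line. In NKX2-5 shRNA cells 6 of 10 members changed from day 0 to day 2 (28.3% of all genes), 8 of 10 from day 2 to day 6 (47.9%) and 7 of 10 from day 6 to day 10 (49.1%). The ZEB2 line gave 6 of 9 (56.9%), 8 of 9 (48.7%) and 6 of 9 (63.3%) over the same steps. The ZNF503 line gave 4 of 8 (31.6%) and 8 of 8 (65.9%) over the first 2. CYP26A1 rose by day 2 in all 3, by 6.90, 6.05 and 4.04 on the log2 scale in the NKX2-5, ZEB2 and ZNF503 lines, and it fell by day 6 in all 3. ALDH1A1 rose from day 2 to day 6 by 10.50 in NKX2-5 shRNA cells (SE 0.46), 8.29 in ZNF503 shRNA cells (SE 0.35) and 5.40 in ZEB2 shRNA cells (SE 0.22). Without replicate 1 of day 2 the ALDH1A1 change in ZNF503 shRNA cells was 9.89, and without replicate 2 of day 0 the CYP26A1 change in NKX2-5 shRNA cells was 7.73. RARA rose from day 2 to day 6 in the 3 knockdown lines (log2 changes 1.83, 1.20 and 1.05 in NKX2-5, ZEB2 and ZNF503 shRNA cells). In WT cells it went from 7.20 and 7.29 to 9.55 and 12.4 CPM and did not pass the test. RARG, which rose by day 2 in WT, NKX2-5 and ZEB2 shRNA cells, fell in ZNF503 shRNA cells, from 33.2 and 31.7 to 20.5 and 20.9 CPM (-0.61, SE 0.16, adjusted p = 0.00868). That fall was lost without any 1 of its 4 libraries (adjusted p from 0.0504 to 0.0896), and the rise of RARG in NKX2-5 shRNA cells likewise (0.108 to 0.214). Only in NKX2-5 shRNA cells between day 6 and day 10 did ALDH1A2 pass the test within a knockdown line. It had 5 counts at day 6 and 68 at day 10, a ratio of 25.1 after scaling (95% counting interval 10.2 to 79.7), and the call was lost without replicate 1 of day 6 (adjusted p = 0.0589). The fitted log2 change of 4.60 was 3.94 without that replicate and 8.85 without replicate 2 of day 6.

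Comparisons with WT asked what each knockdown does to the pathway on a given day. The 3 lines share their WT libraries, so their differences from WT on a given day are not independent of each other. In undifferentiated cells there was little. In NKX2-5 shRNA cells 1 of 9 members tested passed, beside 15.9% of all genes. It was DHRS3, at 11.6 and 15.3 CPM against 4.82 and 6.27 CPM in WT (log2 difference 1.25, SE 0.24, adjusted p = 0.00527), and the call was lost without WT replicate 1 (0.0667). The ZEB2 line also had 1 of 9, beside 3.93%. It was ALDH1A3, at 24.2 and 22.5 CPM against 14.3 and 15.6 CPM (0.62, SE 0.12, adjusted p = 0.0158), which was lost without any 1 of the 4 libraries (0.0554 to 0.183). In ZNF503 shRNA cells none of 9 passed, beside 7.53% of all genes (1 at an unadjusted p under 0.05, and 1 by DESeq2). Under the fold and FDR limits that the study set for day 0, 2-fold and 10%, the calls were DHRS3 and RARB in NKX2-5 shRNA cells (4.03% of all genes), CYP26A1 in ZEB2 shRNA cells (2.20%) and none in ZNF503 shRNA cells (2.56%). RARB was close to the limit of detection there, at 0.283 and 0.321 CPM against 0.0795 and 0.104 CPM. CYP26A1 was at 8.73 and 10.1 CPM in ZEB2 shRNA cells against 3.63 and 4.61 CPM in WT.

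At day 2, the peak of CYP26A1 was lower in the libraries labelled ZNF503 shRNA, in which the ZNF503 transcript itself was at 1.38 CPM against 1.54 CPM in WT. The level of CYP26A1 was 73.8 and 101 CPM, against 620.1 and 662 CPM in WT, 467 and 523 CPM in NKX2-5 shRNA and 598 and 681 CPM in ZEB2 shRNA cells. The 2 ZNF503 shRNA libraries lay below all 6 others. The difference from WT was -2.93 on the log2 scale (SE 0.13, adjusted p = 2.01e-09). RARG and STRA6 were lower in ZNF503 shRNA cells as well, RARG at 20.5 and 20.9 CPM against 44.4 and 48.5 CPM (-1.21, SE 0.14, adjusted p = 1.39e-05) and STRA6 at 9.54 and 13.6 CPM against 26.8 and 26.1 CPM (-1.26, SE 0.19, adjusted p = 0.000192). These were 3 of the 8 members tested, all lower, beside 26.9% of all genes. The mesendoderm markers moved with them: their sum was 372 to 477 CPM in ZNF503 shRNA cells against 786 to 831 CPM in WT, and all 5 of the genes, TBXT, MIXL1, EOMES, MESP1 and GSC, passed the test as lower. The sum of the 6 endoderm and hepatic markers was 25.7 to 35.5 CPM against 109 to 118 CPM, and all 3 of them that could be tested were lower, with SOX17 at 3.73 CPM against 56.1 CPM. AFP, ALB and TTR, at no more than 3 counts in each WT library, add little to these sums. Of 5 pluripotency genes, 3 were higher and 1 lower. The part of these markers in the result was not tested.

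In NKX2-5 shRNA cells at day 2, 3 of 8 members were lower, beside 26.7% of all genes. STRA6 was at 15.8 and 13.4 CPM (log2 difference -0.87, SE 0.19, adjusted p = 0.00358). ALDH1A1 was at 0.299 and 0.580 CPM against 1.48 and 1.91 CPM (-2.06, SE 0.55, adjusted p = 0.0137), and this call was lost without NKX2-5 shRNA replicate 1 (0.158) or WT replicate 2 (0.074). CYP26A1 differed little (-0.39, SE 0.12, adjusted p = 0.0297), and its call was lost without NKX2-5 shRNA replicate 1 (0.208), WT replicate 1 (0.0611) or WT replicate 2 (0.171). In ZEB2 shRNA cells none of the 8 passed, beside 0.490% of all genes (1 at an unadjusted p under 0.05, and 0 by DESeq2). CYP26A1 differed from WT by -0.04 there (SE 0.12). Under the study's limits for day 2, 4-fold and 10% FDR, ALDH1A1 was called in NKX2-5 shRNA cells (1.19% of all genes), none in ZEB2 shRNA cells (0.133%) and CYP26A1 in ZNF503 shRNA cells (2.80%).

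**Figure D2:**
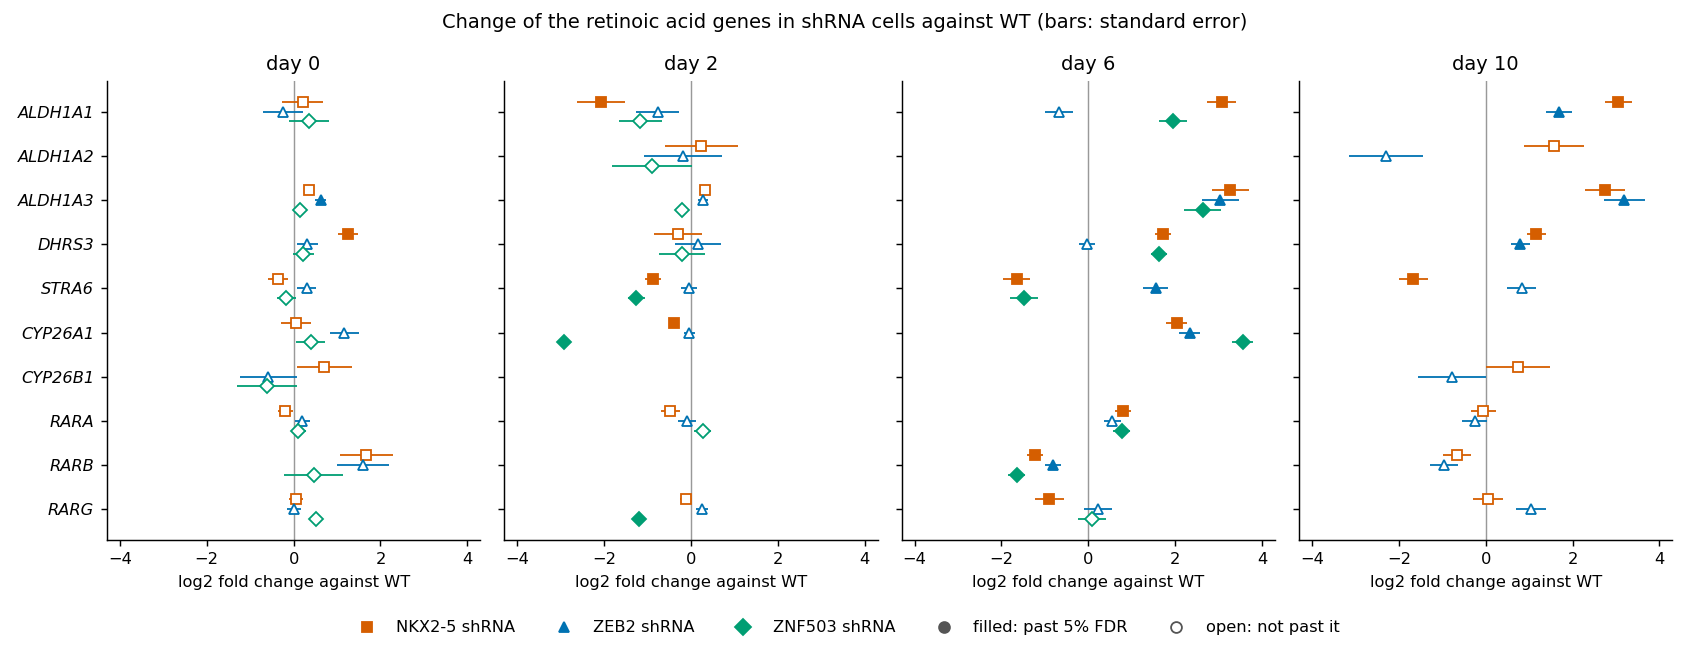
Log2 difference from WT (edgeR) of the tested members in NKX2-5, ZEB2 and ZNF503 shRNA cells, by day, with bars of 1 standard error (n = 2 libraries a group), and filled points past 5% FDR. ALDH1A1 stands above 0 at day 6 in NKX2-5 and ZNF503 shRNA cells (3.07 and 1.95) but not in ZEB2 shRNA cells, and RARB stands below 0 in all 3 lines at day 6.

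At day 6 more members differed from WT than on any other day. All 8 members tested passed in NKX2-5 shRNA cells, 5 higher and 3 lower, 4 of 8 in ZEB2 shRNA cells, 3 higher and 1 lower, and 7 of 8 in ZNF503 shRNA cells, 5 higher and 2 lower. These counts stand beside 49.1%, 11.0% and 55.7% of all genes. The median log2 difference of the 8 genes was 1.25, 0.39 and 1.20, against -0.00, 0.01 and -0.03 over all genes tested. ALDH1A2 and CYP26B1 were too low for the test at this day. Under the study's limits for day 6, 8-fold and 1% FDR, the calls were ALDH1A1 and ALDH1A3 in NKX2-5 shRNA cells (4.71% of all genes), ALDH1A3 in ZEB2 shRNA cells (0.462%) and CYP26A1 in ZNF503 shRNA cells (3.91%).

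Among the synthesis genes at day 6, ALDH1A1 stood at 614 and 561 CPM in NKX2-5 shRNA cells and at 254 and 288 CPM in ZNF503 shRNA cells. In WT it was at 37.8 and 101 CPM and in ZEB2 shRNA cells at 36.1 and 51.6 CPM. The 4 libraries of the former lines were all above the 4 of the latter. Against WT, ALDH1A1 was higher by 3.07 on the log2 scale in NKX2-5 shRNA cells (SE 0.34, adjusted p = 1.11e-05) and by 1.95 in ZNF503 shRNA cells (SE 0.32, adjusted p = 0.000317), and it did not pass in ZEB2 shRNA cells (-0.68, SE 0.32, adjusted p = 0.227). ALDH1A3 was higher in all 3 lines, at 7.08 and 10.8 CPM in NKX2-5 shRNA, 7.45 and 7.78 CPM in ZEB2 shRNA and 4.80 and 6.74 CPM in ZNF503 shRNA cells, where WT had 0.347 and 1.34 CPM. Its log2 differences were 3.27 (SE 0.42, adjusted p = 4.05e-05), 3.04 (SE 0.42, adjusted p = 0.000532) and 2.64 (SE 0.43, adjusted p = 0.000263). Replicate 2 of WT, the higher of the WT libraries for both genes, weighed on these sizes: without it the differences of ALDH1A1 were 3.94 in NKX2-5 shRNA and 2.82 in ZNF503 shRNA cells, and those of ALDH1A3 were 4.66, 4.44 and 4.02 in NKX2-5, ZEB2 and ZNF503 shRNA cells.

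DHRS3, which works against synthesis by reducing retinaldehyde, was at 27.6 and 30.9 CPM in NKX2-5 shRNA and 26.2 and 29.1 CPM in ZNF503 shRNA cells, against 8.34 and 9.36 CPM in WT (log2 differences 1.72, SE 0.18, adjusted p = 6.44e-06, and 1.63, SE 0.18, adjusted p = 1.17e-05). ZEB2 shRNA cells had 9.72 and 7.19 CPM, a difference of -0.04 (SE 0.18, adjusted p = 0.935). STRA6, the retinol importer, split the lines the other way. It was at 1.33 and 2.46 CPM in NKX2-5 shRNA and 1.79 and 2.60 CPM in ZNF503 shRNA cells, below the 7.21 and 5.09 CPM of WT (-1.65, SE 0.31, adjusted p = 0.000835, and -1.47, SE 0.32, adjusted p = 0.00221). In ZEB2 shRNA cells it was at 19.5 and 15.9 CPM, above WT (1.55, SE 0.29, adjusted p = 0.00416). The call in ZEB2 shRNA cells was lost without ZEB2 shRNA replicate 1 (0.0621). The difference between the ZEB2 and NKX2-5 shRNA lines was itself tested, and STRA6 was lower in NKX2-5 than in ZEB2 shRNA cells by 3.20 (log2 difference -3.20, SE 0.32, adjusted p = 5.01e-06).

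CYP26A1 at day 6 was above WT in every knockdown line. Its libraries had 1.87 and 2.16 CPM in WT, 6.60 and 10.0 CPM in NKX2-5 shRNA, 11.1 and 9.11 CPM in ZEB2 shRNA and 23.8 and 24.3 CPM in ZNF503 shRNA cells. The log2 differences from WT were 2.03 (SE 0.24, adjusted p = 2.2e-05), 2.33 (SE 0.24, adjusted p = 6.66e-05) and 3.55 (SE 0.25, adjusted p = 3.06e-07). The line with the lowest CYP26A1 at day 2 was thus the highest at day 6, and all of these levels were far below those of day 2. Mesendoderm marker sums at day 6 were 12.9 to 14.3 CPM in WT, 5.05 to 7.49 CPM in NKX2-5 shRNA, 172 to 188 CPM in ZEB2 shRNA and 14.4 to 19.2 CPM in ZNF503 shRNA cells, and their part in the result was not tested. The high sum of ZEB2 shRNA cells was nearly all EOMES, at 174 CPM against 11.0 CPM in WT, and 1 of the 5 genes passed the test there.

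Of the receptors at day 6, RARB was lower in all 3 lines. WT libraries had 66.8 and 43.1 CPM, NKX2-5 shRNA libraries 23.0 and 24.3 CPM, ZEB2 shRNA libraries 30.7 and 31.8 CPM and ZNF503 shRNA libraries 17.0 and 18.2 CPM. The log2 differences were -1.22 (SE 0.19, adjusted p = 0.000158), -0.81 (SE 0.18, adjusted p = 0.0132) and -1.65 (SE 0.19, adjusted p = 1.85e-05), and no knockdown library reached the lower WT value. The call in ZEB2 shRNA cells was lost without either of its own libraries or without WT replicate 1 (adjusted p from 0.0913 to 0.161). RARA was higher in NKX2-5 shRNA cells, at 18.4 and 20.0 CPM, and in ZNF503 shRNA cells, at 21.4 and 16.4 CPM, than the 9.55 and 12.4 CPM of WT (0.79, SE 0.19, adjusted p = 0.00421, and 0.77, SE 0.19, adjusted p = 0.00505). ZEB2 shRNA cells had 15.1 and 17.4 CPM of RARA, which did not pass (0.56, SE 0.19, adjusted p = 0.0923). RARG was lower in NKX2-5 shRNA cells, at 2.54 and 1.36 CPM against 3.39 and 3.67 CPM (-0.90, SE 0.33, adjusted p = 0.0389), a call that was lost without NKX2-5 shRNA replicate 2 (0.333), WT replicate 1 (0.0714) or WT replicate 2 (0.114).

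At day 10, 4 of 9 members tested differed in NKX2-5 shRNA cells, 3 higher and 1 lower, and 3 of 9 in ZEB2 shRNA cells, all higher, beside 43.9% and 18.2% of all genes. The NKX2-5 shRNA libraries were replicates 1 and 2 and the WT libraries 3 and 4, so line and replicate set cannot be told apart there. ALDH1A1 was at 367 and 304 CPM in NKX2-5 shRNA and 126 and 136 CPM in ZEB2 shRNA cells, against 52.4 and 28.8 CPM in WT. Its log2 differences were 3.05 (SE 0.31, adjusted p = 0.000564) and 1.68 (SE 0.30, adjusted p = 0.0106). ALDH1A3 was at 4.85 and 5.71 CPM in NKX2-5 shRNA and 7.29 and 7.15 CPM in ZEB2 shRNA cells, against 1.04 and 0.436 CPM (2.75, SE 0.47, adjusted p = 0.00365, and 3.19, SE 0.47, adjusted p = 0.00616). DHRS3 was at 34.3 and 34.0 CPM and at 27.8 and 25.4 CPM, against 17.0 and 13.6 CPM (1.16, SE 0.22, adjusted p = 0.00545, and 0.79, SE 0.22, adjusted p = 0.0443). All knockdown libraries of these 3 genes were above both WT libraries. In each line 8 of the 10 members did not overlap with WT in 1 direction or the other, and the share of all genes was not counted. STRA6 was lower in NKX2-5 shRNA cells, at 13.7 and 18.9 CPM against 35.2 and 69.4 CPM (-1.67, SE 0.34, adjusted p = 0.00753), and in ZEB2 shRNA cells it was at 99.6 and 85.3 CPM and did not pass (0.83, SE 0.33, adjusted p = 0.126). Without WT replicate 3 the differences of ALDH1A3 were 3.60 and 4.04. In ZEB2 shRNA cells all 3 calls were lost without a library: ALDH1A1 without ZEB2 shRNA replicate 3 or 4 or WT replicate 4 (adjusted p from 0.0544 to 0.0807), ALDH1A3 without ZEB2 shRNA replicate 3 or 4 (0.0524 and 0.0538) and DHRS3 without any 1 of the 4 (0.0912 to 0.297).

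The receptors did not pass the test at day 10 in either line. RARB was at 17.5 and 10.9 CPM in NKX2-5 shRNA and 13.7 and 9.51 CPM in ZEB2 shRNA cells, under the 22.3 and 23.3 CPM of WT (log2 differences -0.67, adjusted p = 0.127, and -0.97, adjusted p = 0.0769). RARG was at 10.3 and 13.7 CPM in ZEB2 shRNA cells against 4.67 and 7.08 CPM (1.05, SE 0.34, adjusted p = 0.0743). RARA differed by -0.06 (SE 0.29) and -0.25 (SE 0.29). CYP26A1 was too low for the test. It held 29 counts over the 2 NKX2-5 shRNA libraries and 2 over those of WT, a ratio of 9.87 after scaling (95% counting interval 2.50 to 85.4), and 16 over those of ZEB2 shRNA cells, a ratio of 4.10 (0.963 to 36.7). Under the study's limits, 8-fold and 1% FDR, ALDH1A1 was called in NKX2-5 shRNA cells (7.31% of all genes) and ALDH1A3 in ZEB2 shRNA cells (1.46%).

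Tests between knockdown lines did not use WT libraries for the difference. At day 6, NKX2-5 and ZNF503 shRNA cells differed in 2 of 8 members (14.7% of all genes): ALDH1A1 was higher in NKX2-5 shRNA cells (log2 difference 1.12, SE 0.31, adjusted p = 0.0341) and CYP26A1 lower (-1.52, SE 0.22, adjusted p = 0.000891). The ALDH1A1 call was lost without any 1 of the 4 libraries (adjusted p from 0.0694 to 0.231). NKX2-5 and ZEB2 shRNA cells differed in 4 of 8 (44.4% of all genes), with ALDH1A1 (3.75) and DHRS3 (1.75) higher and STRA6 (-3.20) and RARG (-1.13) lower in NKX2-5 shRNA cells. The RARG call was lost without NKX2-5 shRNA replicate 2 (0.166) or ZEB2 shRNA replicate 1 (0.112). ZEB2 and ZNF503 shRNA cells differed in 5 of 8 (49.2% of all genes). There, STRA6 (3.02) and RARB (0.84) were higher and ALDH1A1 (-2.63), DHRS3 (-1.66) and CYP26A1 (-1.22) lower in ZEB2 shRNA cells. At day 10, NKX2-5 and ZEB2 shRNA cells differed in 3 of 9 (21.3% of all genes). ALDH1A1 was higher in NKX2-5 shRNA cells (1.37, SE 0.29, adjusted p = 0.0193), ALDH1A2 was higher, with 68 against 6 counts (3.87, SE 0.77, adjusted p = 0.0161), and STRA6 lower (-2.49, SE 0.35, adjusted p = 0.00537). Without ZEB2 shRNA replicate 3 or 4, the calls for ALDH1A1 (0.156 and 0.142) and ALDH1A2 (0.153 and 0.178) were lost.

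Because counts depend on transcript length, the mixture of receptors and of synthesis enzymes was also expressed per kilobase. RARG made up 73.3% ± 0.534 of the summed RAR level of WT cells at day 0 and 87.7% ± 0.725 at day 2 (SD, n = 2). At day 6 RARB made up 78.6% ± 7.61 in WT, 53.7% ± 0.742 in NKX2-5 shRNA, 61.1% ± 0.715 in ZEB2 shRNA and 44.5% ± 6.17 in ZNF503 shRNA cells. RARA and RARB were level in WT at day 10, at 44.7% ± 5.00 and 43.5% ± 6.36. RARG, the leading receptor of WT ESCs, was thus a minor share in WT cells once RARB had come on. The summed RAR level itself varied less, from 9.84 CPM per kb in ZNF503 shRNA cells at day 2 to 22.1 CPM per kb in WT cells at day 6. For the synthesis enzymes, ALDH1A3 made up 87.3% ± 0.498 of the WT sum at day 0 and 90.6% ± 2.85 at day 2, and ALDH1A1 made up 98.4% ± 0.806 at day 6 and 97.9% ± 0.832 at day 10. At day 6 in the ZEB2 line ALDH1A1 made up 90.0% ± 2.10 and ALDH1A3 9.69% ± 1.91. The sum of the 3 enzymes ranged from 4.93 CPM per kb in WT cells at day 0 to 283 CPM per kb in NKX2-5 shRNA cells at day 6. These shares describe RNA and say nothing of enzyme activity or receptor protein.

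**Figure D3:**
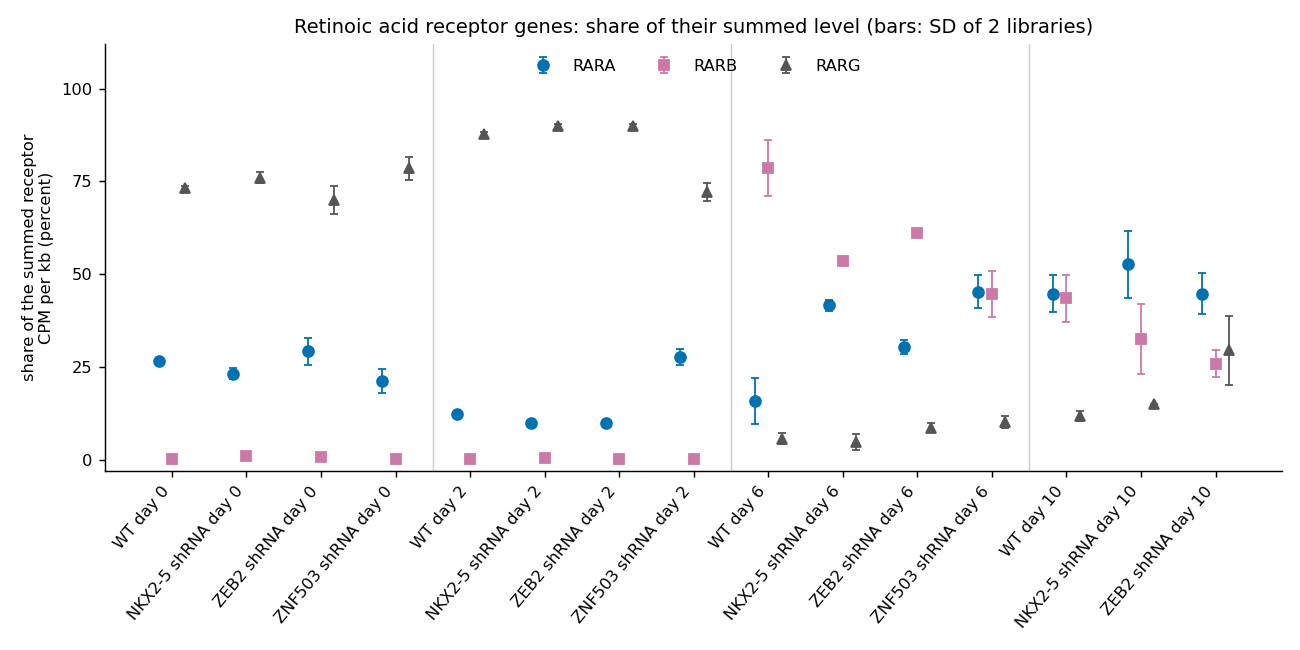
Share of RARA, RARB and RARG in their summed level (percent of CPM per kb, vertical axis) in each of the 15 groups (horizontal axis), as means with bars of 1 SD (n = 2). RARG holds 70.0% to 89.9% at days 0 and 2, and RARB holds 44.5% to 78.6% at day 6.

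Cell-type markers differed along with these genes. At day 6 the summed level of 6 endoderm and hepatic markers (SOX17, FOXA2, AFP, ALB, APOA2 and TTR) was 324 to 657 CPM in WT, 300 to 428 CPM in ZEB2 shRNA, 3134 to 3226 CPM in NKX2-5 shRNA and 2354 to 2483 CPM in ZNF503 shRNA cells, and none of these genes was at or under 3 counts in every library of a group. Ordered by this sum, the 8 libraries of day 6 were also ordered by ALDH1A1, except between the 2 NKX2-5 shRNA libraries. This held within WT, where the library with 657 CPM of markers had 101 CPM of ALDH1A1 and that with 324 CPM had 37.8 CPM. At day 10 the marker sum was 1484 to 3621 CPM in WT, 27136 to 38797 CPM in NKX2-5 shRNA and 6455 to 7823 CPM in ZEB2 shRNA cells. ALDH1A1 was then at 28.8 and 52.4 CPM, 304 and 367 CPM, and 126 and 136 CPM. Within day 10 the libraries had the same order by both, but this did not hold between the days. In NKX2-5 shRNA cells the sum was far higher than at day 6 while ALDH1A1 was lower. That fall was called within the line, but not with another scaling of the libraries (RLE size factors) or in a fit of all libraries. The call was also lost without either library of day 6. The log2 change was then -0.78 without replicate 1 and -0.88 without replicate 2. In WT the sum was also higher than at day 6, and ALDH1A1 was not. Between these days, 2 of the 6 marker genes were called higher and 2 lower in WT, and 4 higher and 1 lower in NKX2-5 shRNA cells. The sum of 5 CM markers (TNNT2, MYH6, MYL7, ACTN2 and RYR2), set beside RARB, was 8020 to 10040.0 CPM in WT at day 6, 4287 to 4729 CPM in ZEB2 shRNA, 156 to 208 CPM in ZNF503 shRNA and 39.6 to 48.5 CPM in NKX2-5 shRNA cells. RARB followed the same order except for the last pair, since it was at 17.0 and 18.2 CPM in ZNF503 shRNA and 23.0 and 24.3 CPM in NKX2-5 shRNA cells. At day 10 the CM sum was higher in WT than at day 6 while RARB was lower, at 22.3 and 23.3 CPM. The CM sums of that day were 52.4 to 326 CPM in NKX2-5 shRNA and 3928 to 5718 CPM in ZEB2 shRNA cells, where RARB was at 10.9 to 17.5 and 9.51 to 13.7 CPM, ranges that overlap. Of the endoderm and hepatic markers, 6 of 6 passed the test as higher than WT in NKX2-5 shRNA cells at day 6, 5 of 6 in ZNF503 shRNA cells and 1 of 6 in ZEB2 shRNA cells, where 1 was lower. The part of these markers in the differences of the RA genes was not tested.

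**Figure D4:**
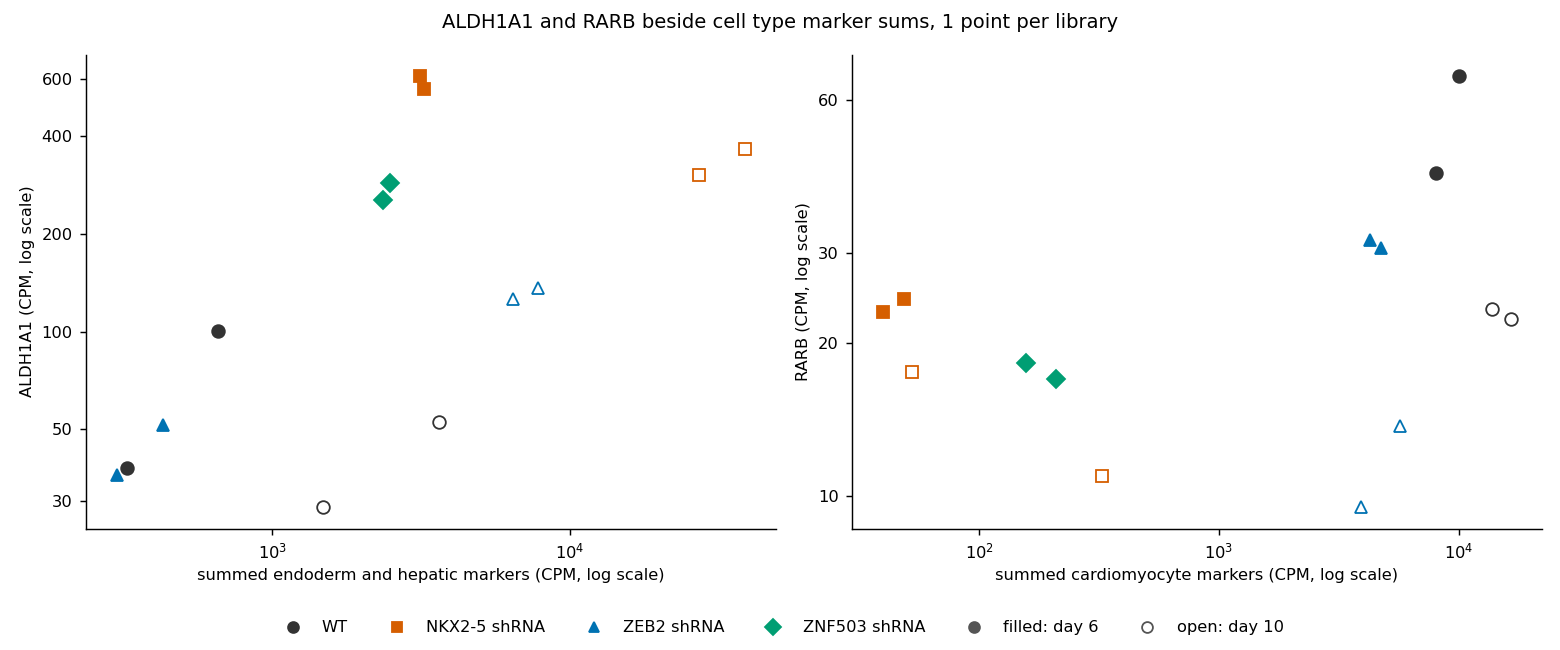
Left, ALDH1A1 (CPM, log axis) against the summed level of 6 endoderm and hepatic markers (CPM, log axis), and right, RARB against the summed level of 5 CM markers, with 1 point for each library of days 6 and 10. The 4 libraries of NKX2-5 and ZNF503 shRNA cells at day 6 lie at 2354 to 3226 CPM of endoderm markers and 254 to 614 CPM of ALDH1A1, both above the WT libraries of that day.

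The wider retinoid system was followed with 17 further genes of transport, storage, synthesis, breakdown and nuclear partners. At day 6, of 16 tested, 6 were higher and 3 lower in NKX2-5 shRNA, 4 higher and 0 lower in ZEB2 shRNA and 8 higher and 5 lower in ZNF503 shRNA cells, beside 49.1%, 11.0% and 55.7% of all genes called in either direction. The genes named here were taken by size of change. DHRS9, which oxidises retinol to retinaldehyde, was at 4.07 ± 0.0179 CPM in WT and at 0 counts in NKX2-5 and ZNF503 shRNA cells, at least 47.7-fold and 29.6-fold lower against a floor of 3 counts per library. In ZEB2 shRNA cells it was at 31.6 ± 9.74 CPM (log2 difference 2.95, SE 0.27, adjusted p = 6.92e-05). RDH10, the main embryonic retinol dehydrogenase, was at 97.9 ± 0.876 CPM in ZEB2 shRNA cells against 16.8 ± 1.21 CPM in WT (2.55, SE 0.15, adjusted p = 1.2e-06). RBP4, the plasma carrier of retinol, was at 101 ± 1.67 CPM in NKX2-5 shRNA and 49.4 ± 1.35 CPM in ZNF503 shRNA cells against 8.53 ± 5.18 CPM (3.52, SE 0.30, adjusted p = 1.3e-06, and 2.49, SE 0.29, adjusted p = 2.15e-05). Its partner TTR, also a member of the endoderm marker list, was at 1237 ± 37.2 and 1486 ± 98.1 CPM against 189 ± 83.3 CPM. BCO1, which cleaves beta-carotene to retinaldehyde, was higher in all 3 lines (2.04, 1.22 and 2.51 in NKX2-5, ZEB2 and ZNF503 shRNA cells). CRABP2, which carries RA to its receptors, was higher in ZEB2 shRNA cells, at 265 ± 28.9 against 148 ± 12.4 CPM (0.85, SE 0.12, adjusted p = 0.000721).

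The same genes were followed on the other days. At day 0, of 14 tested, 3 were higher and 2 lower in NKX2-5 shRNA, 1 higher in ZEB2 shRNA and 1 higher and 1 lower in ZNF503 shRNA cells, beside 15.9%, 3.93% and 7.53% of all genes. At day 2, 3 were higher and 3 lower in NKX2-5 shRNA cells, beside 26.7% of all genes. In ZEB2 shRNA cells 0 passed, beside 0.490% at 5% FDR. At an unadjusted p under 0.05 there were 4, and the share of all genes at that limit was not counted. In ZNF503 shRNA cells 1 was higher and 6 lower, beside 26.9%. In the last, LRAT, which stores retinol as esters, was at 111 ± 6.38 CPM against 12.2 ± 1.29 CPM in WT (log2 difference 3.14, SE 0.12, adjusted p = 7.99e-10). The lower genes there included RXRG, a retinoid X receptor (0.359 ± 0.00361 against 3.89 ± 0.347 CPM), CRABP1 and CRABP2. At day 10, of 16 tested, 6 were higher and 2 lower in NKX2-5 shRNA and 5 higher and 1 lower in ZEB2 shRNA cells, beside 43.9% and 18.2%. LRAT was then at 23.2 ± 1.88 CPM in NKX2-5 shRNA cells against 0.526 ± 0.282 CPM (5.34, SE 0.44, adjusted p = 0.000291). RXRG was lower in both lines (-3.13, SE 0.59, adjusted p = 0.00551, and -4.40, SE 0.63, adjusted p = 0.0056).

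A further 20 genes are known to respond to RA in other settings, HOX genes and their MEIS and PBX partners among them. Against WT at day 6, of 16 tested, 4 were higher and 7 lower in NKX2-5 shRNA, 1 higher and 2 lower in ZEB2 shRNA and 5 higher and 8 lower in ZNF503 shRNA cells, beside 49.1%, 11.0% and 55.7% of all genes. All genes also split about evenly by direction, with 24.4% higher and 24.7% lower in NKX2-5 shRNA cells. MEIS2, a homeodomain partner of HOX proteins, was at 5.97 ± 1.83 CPM in NKX2-5 shRNA and 10.3 ± 1.82 CPM in ZNF503 shRNA cells, against 127 ± 21.4 CPM in WT (-4.39, SE 0.22, adjusted p = 1.21e-08, and -3.62, SE 0.21, adjusted p = 7.05e-08). HOXB2 was lower in ZNF503 shRNA cells, at 0.651 ± 0.343 against 9.45 ± 0.571 CPM, and HOXB3 there had 2 counts against 438 in WT, a ratio of 150 (95% counting interval 41.2 to 1239). At day 10, of 14 tested, 6 were higher and 4 lower in NKX2-5 shRNA and 5 higher and 1 lower in ZEB2 shRNA cells, beside 43.9% and 18.2%. RARRES2, a gene first found as responsive to retinoids, was at 20.8 ± 0.490 CPM in ZEB2 shRNA cells against 2.58 ± 0.0987 CPM (3.01, SE 0.84, adjusted p = 0.0461). At day 2 the counts were 1 higher in NKX2-5 shRNA, 0 in ZEB2 shRNA (3 at an unadjusted p under 0.05) and 2 higher and 2 lower in ZNF503 shRNA cells, of 10 tested and beside 26.7%, 0.490% and 26.9%. At day 0 they were 1 higher and 1 lower in NKX2-5 shRNA, 0 in ZEB2 shRNA (2 at an unadjusted p under 0.05) and 2 lower in ZNF503 shRNA cells, of 9 tested and beside 15.9%, 3.93% and 7.53%. The shares of these 2 days are at 5% FDR, and none was counted at an unadjusted p.

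For each of the 8 well-detected members, the genes with the most similar course over the 15 group means were looked up among 14693 genes. The measure is Pearson's r of log2(CPM + 1), a description over groups that share days and lines. ALDH1A1 was nearest to S100A14 (0.990), DPYS (0.988) and FGB (0.988), the last encoding the beta chain of fibrinogen, a liver product. CYP26A1 was nearest to TGFA (0.957), the mesendoderm gene GSC (0.950) and ZFP64 (0.949). RARB was nearest to EDNRA (0.990), SLC40A1 (0.982) and ACTC1 (0.982), the cardiac alpha actin gene. RARG was nearest to ATP8B1 (0.964), MAP4K1 (0.959) and SLITRK5 (0.952), and RARA to CASKIN2 (0.950), RRN3P3 (0.949) and GRAMD4 (0.949). ALDH1A3 was nearest to GMEB1 (0.956), STXBP5 (0.951) and TUBB2B (0.947), DHRS3 to CKB (0.948), NABP1 (0.944) and P2RX5-TAX1BP3 (0.944), and STRA6 to the collagen genes COL16A1 (0.956) and COL25A1 (0.941) and to CEROX1 (0.932). Between the 2 genes whose promoters are printed above, RARB and CYP26A1, r was -0.563.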

How the data were processed

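The authors deposited raw read counts per RefSeq transcript. Their methods give mapping of paired-end reads from a stranded library to hg19 (GRCh37) and counting over RefSeq genes with RSeQC, and the submitters' processing notes list TopHat2 2.0.14, Bowtie2 2.2.1.0, SAMtools 0.1.19.0 and edgeR. Whether the counting used strand is not given in the sources used here. The deposited counts were used as they stood. RefSeq's annotation matched 40285 of 41627 transcript accessions (97.103% of counts), which gave 23189 symbols, each read from its row with the largest total. Of 34 libraries 30 were used, because the values of the other 4 columns, WT and ZEB2 shRNA replicates 1 and 2 at day 10, did not follow the row names.

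Tests used R 4.3.3 and edgeR 4.0.16 (TMM, filterByExpr, glmQLFit, glmQLFTest, prior count 0.125), with the groups of 1 day fitted together for comparisons at that day and those of 1 line for changes over time, p-values adjusted by the Benjamini-Hochberg method over every gene in the fit, and SE as the log2 change divided by the square root of F. In 28 comparisons, 11 of them against WT, calls were made at 5% FDR and, against WT, also at the study's fold and FDR limits. Shares of all genes are given for these edgeR calls only, not for an unadjusted p under 0.05 or for DESeq2. CPM were scaled by TMM over the 30 libraries, and per-kilobase levels used GENCODE canonical transcript lengths. Alternatives were DESeq2 1.42.0, other scaling, no filter on low counts, a fit of all libraries, a replicate block and leaving out each library. The edgeR step was tested on simulated data.

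All 10 members are named. From the 2 further lists, those named are the 4 of largest change per comparison at most, called, without overlap and with a mean of at least 1 CPM in the higher group. A gene that met this rule is not reported here. For the similarity over groups, the 3 nearest genes with a highest group mean of at least 5 CPM are named. Marker lists covered pluripotent, mesendoderm, cardiomyocyte, endoderm and hepatic, blood, endothelial, epicardial, smooth muscle and neural cells. The members and all lists were chosen with earlier results of these data known. Replicate libraries of a group differed by more than sampling noise (chi-square per gene 5.159 to 101.7), and the study calls them biological replicates without saying, in the sources used here, whether each came from its own infection or culture, so p-values measure the spread between these libraries only. Reads carry no molecular identifiers, and intervals and floors cover counting error only.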

Additional observations from a re-analysis of the deposited data

Results flagged for a closer look

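In 4 comparisons of days, a knockdown line differed from WT in opposite directions on 2 days, with every knockdown library below WT on the earlier day and above it on the later. The difference between the days was not tested in any of them, and the 2 values of each pair rest on different WT libraries. The share of all genes that reverse in this way was not counted, so these reversals cannot be read as particular to the RA genes.

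ALDH1A1 in NKX2-5 shRNA cells was lower than WT at day 2, by -2.06 on the log2 scale, and higher by 3.07 at day 6 and by 3.05 at day 10. At day 2 its level was 0.299 and 0.580 CPM in NKX2-5 shRNA libraries against 1.48 and 1.91 CPM in WT, and at day 6 it was 614 and 561 CPM against 37.8 and 101 CPM. CYP26A1 in NKX2-5 shRNA cells differed by -0.39 at day 2 and by 2.03 at day 6. The day 2 call of both genes was lost when some single libraries were left out.

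CYP26A1 in ZNF503 shRNA cells had the widest such swing of the 4, with a log2 difference of -2.93 at day 2 and 3.55 at day 6. Its libraries had 73.8 and 101 CPM against 620.1 and 662 CPM at day 2, and 23.8 and 24.3 CPM against 1.87 and 2.16 CPM at day 6. Both calls held at 5% FDR in each alternative tried. The ZNF503 transcript was at 89.6% ± 35.5 of WT at day 2 and 7.00% ± 0.285 at day 6 (SD, n = 2).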

How the results depend on the processing

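Over the 28 comparisons, 134 changes of members were called, and 102 of them were called at 5% FDR under every alternative that kept this limit, leaving out single libraries included, with 0 reversed in direction. The numbers below are members called. Without a filter on low counts, 2 were called in ZEB2 shRNA and 1 in ZNF503 shRNA cells against WT at day 0. DESeq2 called 2 and 1 there, 5 in ZEB2 shRNA cells at day 10 and 1 between NKX2-5 and ZNF503 shRNA cells at day 6. A fit of all libraries together called 0 in ZEB2 shRNA cells at day 0, 0 in NKX2-5 shRNA cells at day 2 and 6 in ZEB2 shRNA cells at day 10. With the study's fold and FDR limits, an alternative chosen after seeing the data, NKX2-5 shRNA cells had 2 at day 0, 1 at day 2, 2 at day 6 and 1 at day 10. ZEB2 shRNA cells had 1 at day 0, 1 at day 6 and 1 at day 10, and ZNF503 shRNA cells 1 at day 2 and 1 at day 6. The day 0 call in ZEB2 shRNA cells was then CYP26A1, where that at 5% FDR was ALDH1A3.

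When each library was left out in turn, the lone library left in a group was assumed to vary like the other groups of the fit. The counts then ranged from 0 to 1 in NKX2-5 shRNA cells at day 0, 0 in each case in ZEB2 shRNA cells at day 0, 1 to 4 in NKX2-5 shRNA cells at day 2, 2 to 4 in ZEB2 shRNA cells at day 6 and 0 to 2 in ZEB2 shRNA cells at day 10. They ranged from 2 to 3 for NKX2-5 shRNA cells between days 0 and 2, 4 to 7 for the same line between days 6 and 10, 1 to 2 between NKX2-5 and ZNF503 shRNA cells at day 6, and 1 to 3 between NKX2-5 and ZEB2 shRNA cells at day 10. Of 536 such values of called members, 85 lost the call.

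Libraries of different groups share replicate numbers, but nothing in the labels ties them, and the correlations of their deviations ran from -0.364 to 0.439, so the numbers were not taken to pair samples. A replicate block lost 3 of the 107 called changes it could test (RARG and CYP26B1 within NKX2-5 shRNA cells and STRA6 within ZEB2 shRNA cells) and called 6 members in ZEB2 shRNA cells at day 10. The correlation between ZEB2 shRNA and WT cells at day 10 was -0.239, and the crossed pairing, added after seeing the data, also called 6. Comparisons of replicates 1 and 2 with replicates 3 and 4 allow no block. The depth, with a floor of up to 0.326 CPM, limits ALDH1A2 and CYP26B1 on all days and CYP26A1 at day 10.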

Other observations

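The other cell-type marker lists give context for the RA genes of the same libraries. The sum of 5 blood markers (GATA1, KLF1, HBZ, HBE1 and HBG1) was 1392 to 1612 CPM in NKX2-5 shRNA cells at day 10, against 12.3 to 62.2 CPM in WT and 5.34 to 7.79 CPM in ZEB2 shRNA cells, and all 5 passed the test as higher than WT. These are also the libraries in which ALDH1A2 was highest, with 1.63 ± 0.484 CPM (SD, n = 2). ALDH1A2 did not pass the test against WT on that day, where the WT libraries had 0.311 and 0.871 CPM. The sum of 5 epicardial and mesothelial markers (WT1, TBX18, TCF21, UPK3B and BNC1) was 56.9 to 67.7 CPM in ZEB2 shRNA cells at day 10, where STRA6 was at 99.6 and 85.3 CPM, against 23.3 to 43.1 CPM in WT and 19.3 to 40.0 CPM in NKX2-5 shRNA cells. BNC1 made up most of the ZEB2 shRNA sum (47.7 CPM against 7.49 CPM in WT), while TBX18 was at 1.48 CPM against 19.5 CPM and WT1 at 0.315 CPM against 1.88 CPM, and of the 5 genes 2 passed the test as higher and 1 as lower.

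At day 6, the sum of 5 endothelial markers was 460 to 543 CPM in WT, 196 to 197 CPM in NKX2-5 shRNA, 416 to 435 CPM in ZEB2 shRNA and 125 to 164 CPM in ZNF503 shRNA cells, with 2 of the 5 genes lower than WT in each knockdown line. The sum of 4 smooth muscle markers was 800 to 1113 CPM in WT, 155 to 220.5 CPM in NKX2-5 shRNA, 538 to 595 CPM in ZEB2 shRNA and 653 to 846 CPM in ZNF503 shRNA cells. Of these smooth muscle genes, 3 were lower than WT in NKX2-5 shRNA and 1 in ZEB2 shRNA cells. In ZNF503 shRNA cells 1 was higher and 2 were lower. The sum of 4 neural markers was 16.5 to 23.8 CPM in WT, 80.6 to 97.9 CPM in NKX2-5 shRNA, 19.1 to 23.6 CPM in ZEB2 shRNA and 150.2 to 191 CPM in ZNF503 shRNA cells. Of these 4 genes only 1 passed the filter on low counts for the test. SOX1 and NEUROG2 held no more than 3 counts in each library of every group of that day, and PAX6 likewise in WT. In undifferentiated WT cells at day 0 the same sum was 198 to 213 CPM, above every group of day 6, so it is not particular to neural cells. The part of these cell types in the RA gene results was not tested.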
